A study of Mus musculus with 8 samples.

Results

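The genes described here encode the E proteins, the Id inhibitors and the ETO corepressors: 10 of the 23235 gene symbols in the deposited table, with 27 of its 30028 transcripts. They were taken by symbol, as Tcf3, Tcf4 and Tcf12 for the E proteins, Id1, Id2, Id3 and Id4 for the Id proteins, and Cbfa2t2, Cbfa2t3 and Runx1t1 for the ETO proteins, and the FPKM (fragments per kilobase of transcript and per unit of library size) of each gene's transcripts were added up. RNA was sequenced from mouse embryonic fibroblasts of the C57BL/6 strain, connective tissue cells grown in serum-containing medium, in 4 groups of 2 libraries. Taf4 -/- cells carrying a stably introduced human TAF4 without its TAFH domain formed the TAFH-deleted rescue (clones 1 and 2), and Taf4 -/- cells with stable full-length human TAF4 formed the wild-type rescue (clones 1 and 2). Taf4 -/- cells without a transgene formed the knockout. Cells with 1 floxed and 1 null Taf4 allele (Taf4 loxp/-) formed the control, while other labels on these libraries read wild type. Each rescue library comes from 1 clone, so a difference between the TAF4 forms and a difference between the clones chosen cannot be told apart, and the promoter that drives the transgenes is not given in the sources used here.

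E proteins are class I basic helix-loop-helix transcription factors. They bind DNA as dimers, with each other or with tissue-restricted partners such as MyoD, at the E-box, whose letters are CANNTG. Id proteins have the helix-loop-helix but lack the basic region, so that an E protein paired with an Id protein does not bind DNA. ETO proteins are corepressors that contact an activation domain of E proteins through a domain that resembles TAFH, as known from human proteins. TAF4 itself belongs to TFIID, the complex that places RNA polymerase II at promoters. In its title the series links E proteins with TAF4 as their coactivator. The RNA levels of these 10 genes bear on whether transcripts of E proteins, their inhibitors or their corepressors were themselves at other levels in the compared cells. They do not give the levels of the proteins.

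The 2 knockout libraries differed by less than the sampling noise between independent libraries, and so did the 2 control libraries. The chi-square per gene over genes with 2 to 7 fragments was 0.635 ± 0.0378 (SE) in the knockout pair and 0.735 ± 0.0378 (SE) in the control pair. It was 2.54 ± 0.115 between the TAFH-deleted clones and 1.57 ± 0.0716 between the wild-type rescue clones. The knockout pair and the control pair therefore each entered as a mean, as 1 sample, so that 6 samples remained and the knockout and control values have no replicate error. Whether any libraries stem from separate cultures is not in the labels, and the p-values below reflect the spread among these samples only, which may be technical. The steps between low FPKM values imply totals between 1.43e+07 and 1.73e+07 fragments per library. Values given in pairs for the rescue groups are those of clone 1 and clone 2. Of 8 fibroblast markers, 7 reached at least 1 FPKM in 2 or more libraries, with sums between 673 and 761 FPKM; Thy1 was at most 0.0773 FPKM in the 6 samples. None of the 5 endothelial and none of the 5 epithelial markers reached that level, and Tie1, Epcam and Krt8 were at 0 in every library. Of the other marker lists, 1 of 8 haematopoietic genes (Lyz2, sum of the list 0.278 to 8.39 FPKM), 1 of 5 skeletal muscle genes (sum 0.301 to 3.04 FPKM, Myog and Ckm at 0) and 2 of 5 neuronal genes (sum 15.1 to 32.1 FPKM, Snap25 at 0) reached it. In such bulk RNA, fewer cells that make a transcript and less of it per cell cannot be told apart.

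The member that stood apart was Runx1t1, which encodes ETO itself, the protein fused to RUNX1 in a form of human myeloid leukaemia. It was at 5.95 and 4.86 FPKM with TAFH-deleted TAF4, 10.4 and 10.6 FPKM with full-length TAF4, 5.99 and 5.97 FPKM in the knockout libraries and 11.3 and 11.2 FPKM in the control libraries. Every knockout and TAFH-deleted library thus lay below every control and wild-type rescue library. The gene lies on chromosome 4 (mm9, 13670449 to 13820790), and its 3 listed transcripts differ in where they begin. They were matched to GENCODE transcripts of GRCm38 with first exons 7.861 and 41.346 kilobases downstream of the first one, on the + strand. The 3 coding starts are shown because these are the coding bases in which the transcripts differ: capitals mark the coding bases of each transcript's own first coding exon, and lower case marks the start of the next exon, the first of 9 exons that all 3 transcripts share.
NM_001111026 (first start): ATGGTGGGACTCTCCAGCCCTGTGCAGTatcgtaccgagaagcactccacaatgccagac
NM_001111027 (middle start): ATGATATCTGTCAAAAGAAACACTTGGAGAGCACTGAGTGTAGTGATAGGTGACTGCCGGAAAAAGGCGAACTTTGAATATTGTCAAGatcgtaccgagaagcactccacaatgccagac
NM_009822 (last start): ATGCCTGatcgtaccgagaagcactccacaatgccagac
The coding bases of the own exon number 28, 88 and 7, so the 3 proteins begin differently and continue alike.

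Regulatory sequence was looked at for the E-box, since E proteins bind it. The RefSeq promoter table of GRCm38.p6, which gives 250 bases before and 50 bases from each gene start, held 10 promoters of 7 of the 10 genes. It held none of Id1, Tcf4 and Runx1t1. CANNTG, whose reverse complement has the same form so that a match on one strand is a match on both, occurred in 7 of these 10 promoters, beside 72.3% of all 32851 promoters in that table. The Id2 promoter held 1 E-box, CAGCTG, at position -196 from the start, and the promoters of Id3, Id4 and Cbfa2t2 held 0, as did 27.7% of all promoters. The Id3 window begins at 136143572, downstream of the start of the matched GENCODE transcript at 136143497, so it does not hold the bases before that start. The upstream promoter of Cbfa2t3 held 4, a number reached by 6.49% of promoters. The promoters of Id2 and Id4 are shown as the Id genes that differed most between clones of the same form, with the E-box in capitals. Id2 lies at chr12:25096043-25096342 on the - strand and Id4 at chr13:48260866-48261165 on the + strand.
Id2 promoter: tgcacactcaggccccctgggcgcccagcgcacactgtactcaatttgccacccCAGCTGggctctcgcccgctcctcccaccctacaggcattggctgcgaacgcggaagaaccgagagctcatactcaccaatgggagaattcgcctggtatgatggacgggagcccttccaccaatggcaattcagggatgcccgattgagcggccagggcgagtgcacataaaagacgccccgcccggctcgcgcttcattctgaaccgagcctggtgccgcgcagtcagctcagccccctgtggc
Id4 promoter: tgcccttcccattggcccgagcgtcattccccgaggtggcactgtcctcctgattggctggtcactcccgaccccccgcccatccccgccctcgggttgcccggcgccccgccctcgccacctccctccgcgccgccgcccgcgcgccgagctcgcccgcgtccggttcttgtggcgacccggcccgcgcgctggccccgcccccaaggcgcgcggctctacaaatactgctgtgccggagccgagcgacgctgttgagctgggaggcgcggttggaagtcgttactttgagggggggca
A match of these letters is a description of the window and says nothing about binding in these cells.

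The 10 genes covered a wide range of levels. The mean over the 6 samples was highest for Id3, at 118 ± 11.6 FPKM (SD, n = 6), followed by Id1 at 89.2 ± 17.0, Tcf3 at 58.1 ± 3.12, Tcf12 at 48.6 ± 6.56, Id2 at 46.0 ± 8.10 and Tcf4 at 38.9 ± 3.53 FPKM. The ETO genes were lower, with Cbfa2t2 at 13.6 ± 1.67 and Runx1t1 at 8.19 ± 2.87 FPKM, and Id4 was at 2.22 ± 2.20 FPKM. In all 6 samples Id3 lay above Id1, Id1 above Tcf3, Tcf3 above Tcf12, Tcf4 above Cbfa2t2 and Cbfa2t2 above Runx1t1. Tcf12 lay above Id2 in 3 of 6 samples and Id2 above Tcf4 in 4 of 6, so the order of these neighbours was within their spread, while Runx1t1 lay above Id4 in 5 of 6. Cbfa2t3, which encodes the ETO protein known best from blood cells, was at most 0.0240 FPKM in every library and at 0 in 3 of them. Its 3 transcripts took at most 3.03 estimated fragments in a library, so no difference in Cbfa2t3 was detectable at this depth and it was not tested.

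**Figure D1:**
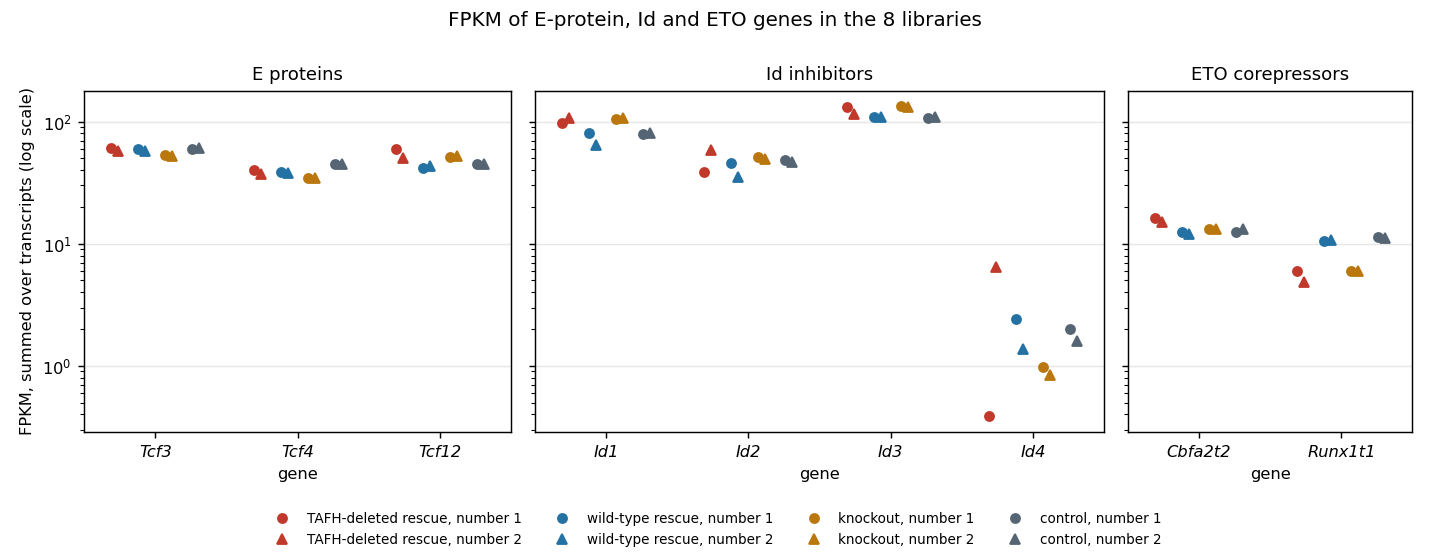
FPKM on a log scale, summed over the transcripts of each gene, in each of the 8 libraries; colours mark the groups and circles and triangles the clone or library number. Runx1t1 forms a lower and an upper set of libraries, Id4 spreads from 0.385 to 6.47 FPKM between the TAFH-deleted clones, and Cbfa2t3, at most 0.0240 FPKM, is not drawn.

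Tcf3 encodes E12 and E47, the E proteins first described as binding immunoglobulin enhancers. It was at 61.3 and 57.2 FPKM with TAFH-deleted TAF4, 59.8 and 57.3 FPKM with full-length TAF4, 52.9 and 52.4 FPKM in the knockout libraries and 59.6 and 60.7 FPKM in the control libraries. The knockout libraries were the lowest, and the rescue clones of both forms overlapped each other. The highest of the 6 samples was 1.16 times the lowest, the smallest such ratio among the 9 genes tested. The 8 listed Tcf3 transcripts have lengths between 3305 and 3320 bases and differ little, so how fragments were divided among them is uncertain and only their sum is described.

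Tcf4 encodes E2-2, an E protein prominent in neural progenitors and plasmacytoid dendritic cells. Its level was 40.3 and 37.5 FPKM with TAFH-deleted TAF4, 38.3 and 37.9 FPKM with full-length TAF4, 34.5 and 34.7 FPKM in the knockout libraries and 44.9 and 45.3 FPKM in the control libraries. Control was the highest and knockout the lowest, with all 4 rescue clones in between. The authors' estimates for the 2 Tcf4 transcripts moved differently. NM_001083967 was at 15.0 and 18.9 FPKM with TAFH-deleted TAF4, 16.3 and 18.6 FPKM with full-length TAF4, 19.4 FPKM in knockout and 29.1 FPKM in control. NM_013685 was at 25.3 and 18.5 FPKM with TAFH-deleted TAF4, 22.0 and 19.3 FPKM with full-length TAF4, 15.2 FPKM in knockout and 16.0 FPKM in control. The first transcript thus made up 64.6% of the gene in control and 37.2% to 50.5% in the rescue clones. In the authors' deposited table NM_001083967 was called lower in knockout than in control (19.4 against 29.1 FPKM, q listed as 0), and NM_013685 was called higher in wild-type rescue than in knockout (20.7 against 15.2 FPKM, q = 0.000188). The matched GENCODE transcripts begin 1.232 kilobases apart and share most of their length, so the division between them rests on few informative bases.

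Tcf12 encodes HEB, an E protein first studied in T cell and muscle development. It was at 59.5 and 50.4 FPKM with TAFH-deleted TAF4, 42.0 and 43.3 FPKM with full-length TAF4, 50.8 and 52.3 FPKM in the knockout libraries and 45.1 and 45.0 FPKM in the control libraries. Knockout and TAFH-deleted libraries lay above control and wild-type rescue libraries, the opposite arrangement to Runx1t1. Most of the Tcf12 signal was assigned to NM_001253862 and NM_011544, which encode long forms. NM_001253865, a short form that begins 215.758 kilobases downstream of the first Tcf12 start, was listed at 4.29 and 4.44 FPKM with TAFH-deleted TAF4 and at no more than 0.00527 FPKM in any other library. NM_001253864, which shares its GENCODE model with NM_001253865, was at 0.0303 and 0 FPKM with TAFH-deleted TAF4, 3.50 and 0 FPKM with full-length TAF4, 2.15 FPKM in knockout and 1.10 FPKM in control. Signal of the short form was thus present in most libraries and assigned to either entry, and the authors' deposited table did not call the difference of NM_001253865 between TAFH-deleted rescue and knockout (4.37 against 0.00494 FPKM, q = 1.00).

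Id1 and Id3, targets of BMP signalling in many cell types, were the highest of the 10 genes. Id1 was at 96.7 and 108 FPKM with TAFH-deleted TAF4, 80.4 and 64.5 FPKM with full-length TAF4, 105 and 107 FPKM in the knockout libraries and 79.0 and 81.2 FPKM in the control libraries. Id3 was at 132 and 115 FPKM with TAFH-deleted TAF4, 109 and 110 FPKM with full-length TAF4, 133 and 133 FPKM in the knockout libraries and 108 and 109 FPKM in the control libraries. Both genes lay higher in every knockout and TAFH-deleted library than in any control or wild-type rescue library. The estimated fragments of Id3 numbered 1390 to 1477 in each library. They equalled a share of 72.9% to 77.5% of the places where a read could begin, counted on both strands. The places in use were not observed. If a limit of 1 read per place applied, which the labels do not state, Id3 was near it. With its fragments nearly equal everywhere, its FPKM was highest in the 3 libraries with the smallest implied totals. After a correction for that limit, chosen after the data were seen, Id3 stood at 198 and 167 FPKM with TAFH-deleted TAF4, 159 and 158 FPKM with full-length TAF4, 208 FPKM in knockout and 157 FPKM in control, the same arrangement. The correction rests on its own assumptions, and the part of the limit in the Id3 values was not tested. The share was 42.3% to 67.7% for Id1 and at most 49.3% for each of the other genes.

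Id2 and Id4 differed most between clones of the same form. Id2 was at 38.9 and 58.2 FPKM with TAFH-deleted TAF4, 46.0 and 35.5 FPKM with full-length TAF4, 50.8 and 49.3 FPKM in the knockout libraries and 48.3 and 46.8 FPKM in the control libraries. The clones of both forms overlapped. Those of the TAFH-deleted form lay on either side of all knockout and control libraries, and both wild-type rescue clones lay below them. Id4, known for its part in neural stem cells and the mammary gland, was at 0.385 and 6.47 FPKM with TAFH-deleted TAF4, 2.41 and 1.38 FPKM with full-length TAF4, 0.974 and 0.835 FPKM in the knockout libraries and 1.99 and 1.59 FPKM in the control libraries. The second TAFH-deleted clone was 16.8 times the first, and both extremes of the 8 libraries were clones of that form. In fragments these values stand for 8 and 153 in the TAFH-deleted clones.

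Cbfa2t2, which encodes the ETO family protein MTGR1, was at 16.2 and 15.1 FPKM with TAFH-deleted TAF4, 12.5 and 11.9 FPKM with full-length TAF4, 13.2 and 13.1 FPKM in the knockout libraries and 12.6 and 13.1 FPKM in the control libraries. The TAFH-deleted clones were the highest and the remaining libraries lay close together. Runx1t1 made up 26.8% and 24.3% of the summed ETO FPKM with TAFH-deleted TAF4, 45.5% and 47.1% in the wild-type rescue clones, 31.2% in knockout and 46.6% in control, and Cbfa2t2 nearly all of the rest.

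The sum of the 4 Id genes exceeded that of the 3 E-protein genes in every sample. The Id sum was 268 and 287 FPKM with TAFH-deleted TAF4, 238 and 211 FPKM with full-length TAF4, 290 FPKM in knockout and 238 FPKM in control. The E-protein sum was 161 and 145 FPKM with TAFH-deleted TAF4, 140 and 138 FPKM with full-length TAF4, 139 FPKM in knockout and 150 FPKM in control. The ratio of Id to E-protein FPKM was therefore 1.66 and 1.98 in the TAFH-deleted clones, 1.70 and 1.53 in the wild-type rescue clones, 2.09 in knockout and 1.58 in control. Knockout had the highest ratio, and the TAFH-deleted and wild-type clones overlapped. After the same correction the ratios were 2.09 and 2.55 in the TAFH-deleted clones, 2.07 and 1.84 in the wild-type rescue clones, 2.83 in knockout and 1.89 in control. The clones of the 2 forms then no longer overlapped, though 2.09 and 2.07 lay close together, so their overlap depends on the correction.

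**Figure D2:**
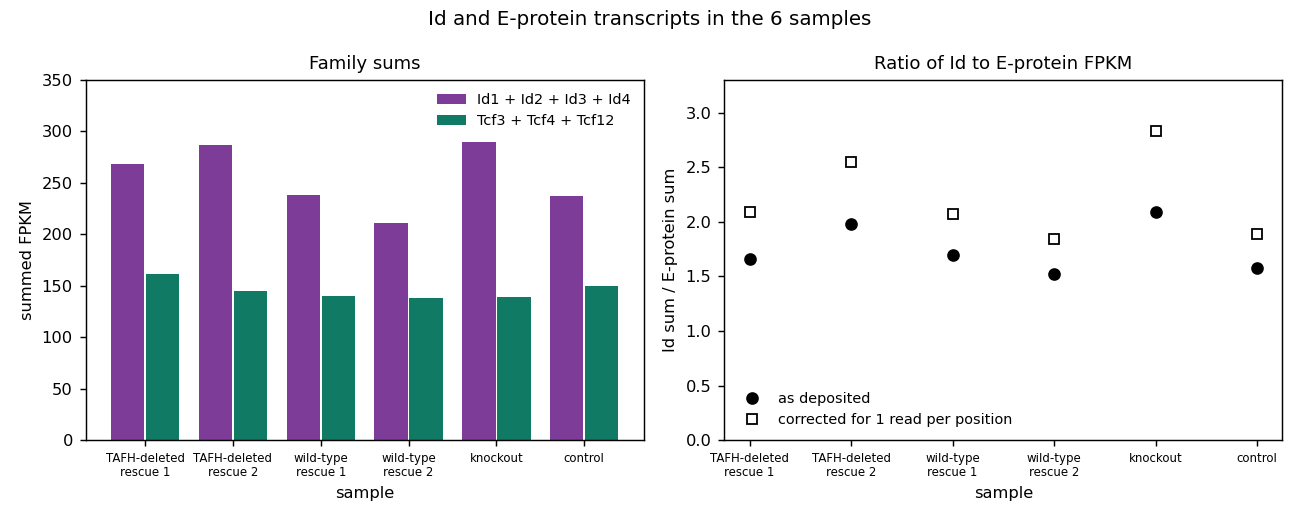
Left, summed FPKM of the 4 Id genes and of the 3 E-protein genes in each of the 6 samples. Right, their ratio as deposited and after correction for an assumed limit of 1 read per position. The Id sum is the larger in every sample, and the ratio is highest in knockout by either calculation, at 2.09 and 2.83.

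Knockout was first set against control, for changes that follow loss of Taf4. Of the 9 genes tested, Runx1t1 and Tcf4 had the smallest p-values, both with lower values in knockout: Runx1t1 was at 5.98 against 11.2 FPKM, a ratio of 0.532, and Tcf4 at 34.6 against 45.1 FPKM, a ratio of 0.767. Differences between groups below are on a log2(FPKM + 1) scale and so understate changes of low genes. The difference was -0.81 ± 0.25 (SE) for Runx1t1 and -0.37 ± 0.12 for Tcf4, each with an adjusted p of 0.503 from limma with Benjamini-Hochberg adjustment over 12025 genes. Id1 differed by 0.40 ± 0.19 (106 against 80.1 FPKM) and Id3 by 0.30 ± 0.12 (133 against 108 FPKM), with adjusted p of 0.610 and 0.568 in the same limma fit. Limma called 0 of the 9 members and 0.0% of all genes tested. At an unadjusted p under 0.05 there were 2 members, Runx1t1 and Tcf4, against 9.21% of all genes. Knockout and control were 1 sample each, with a spread borrowed from the rescue clones, so values that miss the threshold do not show that these genes stayed the same: the 95% interval ran from -1.50 to -0.12 for Runx1t1 and from -3.94 to 2.84 for Id4. Without TAFH-deleted clone 1, which is not part of this comparison, limma called Tcf4, Id3 and Runx1t1, and the same 3 without TAFH-deleted clone 2, beside 22.6% and 22.1% of all genes.

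The authors' deposited table gave many more calls in this comparison. It tested 19 of the 27 member transcripts and called 11, of which 3 were higher and 8 lower in knockout, against 53.8% of all transcripts it tested. In that deposited table all 3 Runx1t1 transcripts were called lower in knockout: NM_001111026 was at 1.31 against 4.64 FPKM (q = 3.18e-13), NM_001111027 at 0 against 0.756 FPKM (q = 3.36e-07) and NM_009822 at 4.67 against 5.84 FPKM (q = 0.0218). The first-start transcript differed most among the 2 with signal in both groups. The authors' deposited table called Id1 (106 against 80.1 FPKM, q = 4.24e-10) and Id3 (133 against 108 FPKM, q = 6.28e-08) higher in knockout and Id4 lower (0.904 against 1.79 FPKM, q = 0.0256). Its q-values come from pairs of libraries that differ by less than the sampling noise.

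Wild-type rescue was then set against knockout, for the levels that full-length human TAF4 moves. The values of Runx1t1 were higher with wild-type TAF4, at 10.54 ± 0.137 FPKM (SD, n = 2) against 5.98 FPKM in knockout, and those of Id1 were lower, at 72.4 ± 11.2 against 106 FPKM. The log2 difference was 0.73 ± 0.22 for Runx1t1 and -0.55 ± 0.16 for Id1, with adjusted p of 0.340 and 0.337 (limma). Id3 differed by -0.28 ± 0.11 and Tcf12 by -0.27 ± 0.13, while Tcf3 and Tcf4 differed by 0.15 ± 0.09 and 0.13 ± 0.10, all with adjusted p of at least 0.387 in that limma fit. Limma called 0 of the 9 members and 0.0% of all genes, and an unadjusted p under 0.05 was reached by 2 members, Id1 and Runx1t1, against 13.3% of all genes. This comparison shares the knockout sample with the one before, so opposite signs in both are not independent. Without TAFH-deleted clone 1, which is not among the samples compared, limma called Tcf12, Id1, Id3 and Runx1t1, and the same 4 without clone 2, beside 26.7% and 26.6% of all genes. The authors' deposited table called 6 of 19 tested member transcripts, 4 higher and 2 lower, against 25.8% of all transcripts; the higher ones include the Runx1t1 transcripts NM_001111026 (3.20 against 1.31 FPKM, q = 0.000912) and NM_009822 (6.87 against 4.67 FPKM, q = 0.00565).

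TAFH-deleted rescue was set against the same knockout sample. No member stood out: log2 differences lay between -0.13 ± 0.22 for Runx1t1 and 0.76 ± 1.07 for Id4, and the smallest adjusted p was 0.793 (limma). Runx1t1 averaged 5.41 ± 0.772 FPKM (SD, n = 2) in the TAFH-deleted clones against 5.98 FPKM in knockout, and Cbfa2t2 averaged 15.7 ± 0.769 against 13.2 FPKM, a log2 difference of 0.23 ± 0.17. Limma called 0 of 9 members and 0.0% of all genes, and 0 members reached an unadjusted p under 0.05, against 6.56% of all genes. The 95% interval for Runx1t1 ran from -0.73 to 0.47. Without TAFH-deleted clone 1, limma called 2 members, Id3 and Id4, beside 33.4% of all genes, and Id4 then rests on the clone with 6.47 FPKM. The authors' deposited table called 0 of 21 tested member transcripts, against 0.957% of all transcripts.

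**Figure D3:**
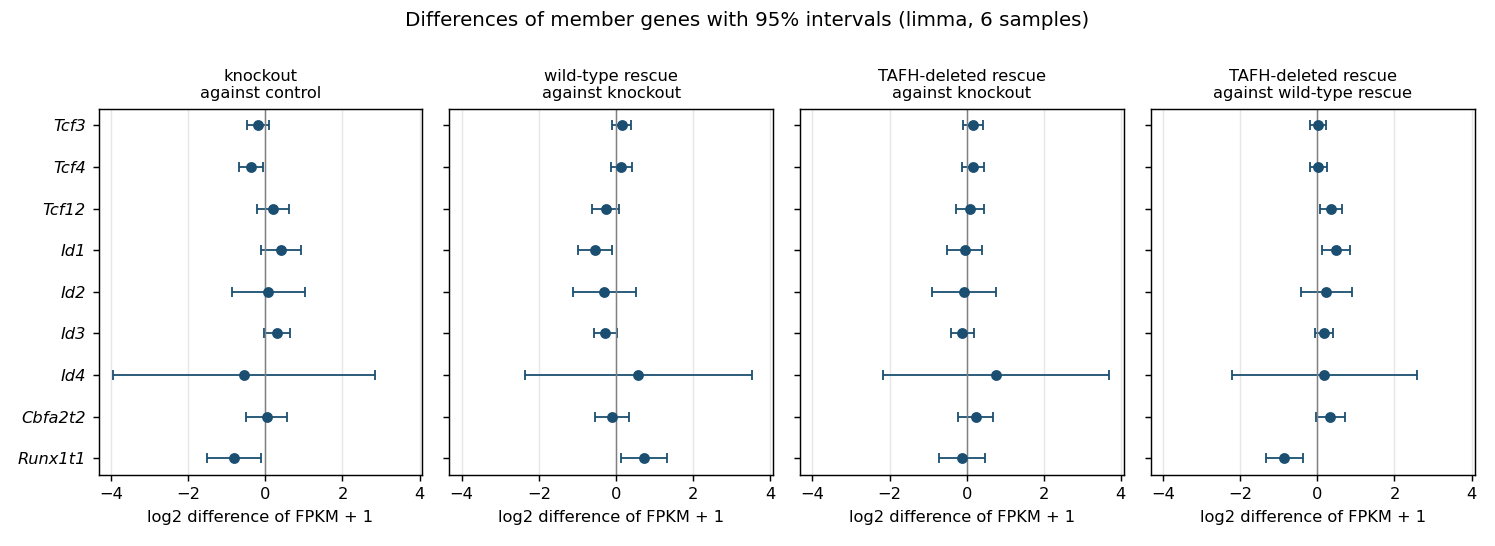
Log2 differences of FPKM + 1 for the 9 tested genes in the 4 comparisons, as points with 95% intervals from the limma fit over 6 samples. Runx1t1 lies at -0.81, 0.73, -0.13 and -0.85 from left to right, and the intervals of Id4 are the widest.

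Levels that depend on the TAFH domain were sought between the 2 rescue forms, with 2 clones on each side. Here Runx1t1 was again the member with the smallest p, at 5.41 ± 0.772 against 10.54 ± 0.137 FPKM (SD, n = 2 each), and neither clone of one form overlapped the other. Its log2 difference was -0.85 ± 0.18 (95% interval -1.34 to -0.36), with an adjusted p of 0.0817 by limma, which misses the threshold of 0.05. Id1 was higher in the TAFH-deleted clones by 0.50 ± 0.13 (102 ± 7.67 against 72.4 ± 11.2 FPKM, adjusted p = 0.110 by limma) and Tcf12 by 0.35 ± 0.11 (55.0 ± 6.41 against 42.7 ± 0.875 FPKM, adjusted p = 0.130 by limma). Cbfa2t2 differed by 0.34 ± 0.14, with an adjusted p of 0.198 by limma. Tcf3 and Tcf4 differed by 0.02 ± 0.08 and 0.03 ± 0.08, with 95% intervals from -0.19 to 0.22 and from -0.20 to 0.25. Limma called 0 of the 9 members, against 2.62% of all genes, and 3 members reached an unadjusted p under 0.05 (Runx1t1, Id1 and Tcf12), against 28.8% of all genes. No member differed 2-fold or more on the log2(FPKM + 1) scale in any of the 4 comparisons, taken in the order above, as 6.56%, 3.95%, 3.65% and 8.54% of all genes did. The clones of the 2 forms did not overlap for 5 members (Tcf12, Id1, Id3, Cbfa2t2 and Runx1t1), against 63.5% of all genes. The share among members was thus near that among all genes.

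Which members were called rested on the clones kept. Without TAFH-deleted clone 1, limma called Tcf12, Id1, Id2, Id4 and Runx1t1 in TAFH-deleted against wild-type rescue, beside 55.9% of all genes. Without TAFH-deleted clone 2 it called Tcf12, Id1, Id3, Id4, Cbfa2t2 and Runx1t1, beside 40.0% of all genes. Calls were thus common among all genes in these fits. Tcf12, Id1 and Runx1t1 kept their direction in both, whereas Id4 differed by 1.39 without clone 1 and by -1.04 without clone 2. Without either wild-type rescue clone, limma called none of the members in this comparison.

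The arrangement of Runx1t1 over all 6 samples was described after its values were seen. Both TAFH-deleted clones and knockout lay below both wild-type rescue clones and control, as they did for 13.5% of all genes tested. The gap between the nearest samples of the 2 sets was 0.71 on the log2(FPKM + 1) scale. A gap at least this wide in the same direction was found in 1.69% of all genes (203 of 12025). The reverse direction is not counted in that share, and Runx1t1 was picked from the 9 members tested. Tcf12, Id1, Id3 and Cbfa2t2 showed the reverse arrangement, as did 15.8% of all genes. For Cbfa2t2 it rests on a narrow gap, with knockout at 13.19 and control at 12.86 FPKM. The summed level of the 8 haematopoietic markers, with Ptprc at most 0.0115 FPKM, was arranged like Runx1t1: 0.278 and 1.32 FPKM with TAFH-deleted TAF4, 8.39 and 3.18 FPKM with full-length TAF4, 1.52 FPKM in knockout and 4.05 FPKM in control. Lyz2 made up most of the higher sums, so the arrangement was that of Lyz2 and not of the list. Csf1r was highest in TAFH-deleted clone 2, at 1.09 FPKM, and Cd79a in knockout, at 0.210 FPKM. The part of any haematopoietic cells in the Runx1t1 result was not tested. Cbfa2t2 and Runx1t1 were the 2 members whose rescue forms lay on opposite sides of knockout, as they did for 26.6% of all genes.

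Among the Runx1t1 transcripts whose starts are printed above, the last start held the largest share in every sample but the first TAFH-deleted clone. NM_009822 was at 2.90 and 4.11 FPKM with TAFH-deleted TAF4, 6.37 and 7.38 FPKM with full-length TAF4, 4.67 FPKM in knockout and 5.84 FPKM in control. NM_001111026, from the first start, was at 3.05 and 0.750 FPKM with TAFH-deleted TAF4, 3.34 and 3.07 FPKM with full-length TAF4, 1.31 FPKM in knockout and 4.64 FPKM in control. The first TAFH-deleted clone was near the wild-type rescue clones for this transcript and the second one below knockout. NM_001111027, from the middle start, was listed at 0 in both TAFH-deleted clones and in knockout, at 0.740 and 0.191 FPKM with full-length TAF4 and at 0.756 FPKM in control. The lower sum in the TAFH-deleted clones was thus made up differently in each, with the last start at 48.7% of the gene in clone 1 and 84.6% in clone 2. If each gene is represented in each sample by its highest transcript in place of the sum, which for Runx1t1 is NM_001111026 in TAFH-deleted clone 1 and NM_009822 in the others, the log2 difference of Runx1t1 was -0.27 in knockout against control and -0.79 in TAFH-deleted against wild-type rescue.

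**Figure D4:**
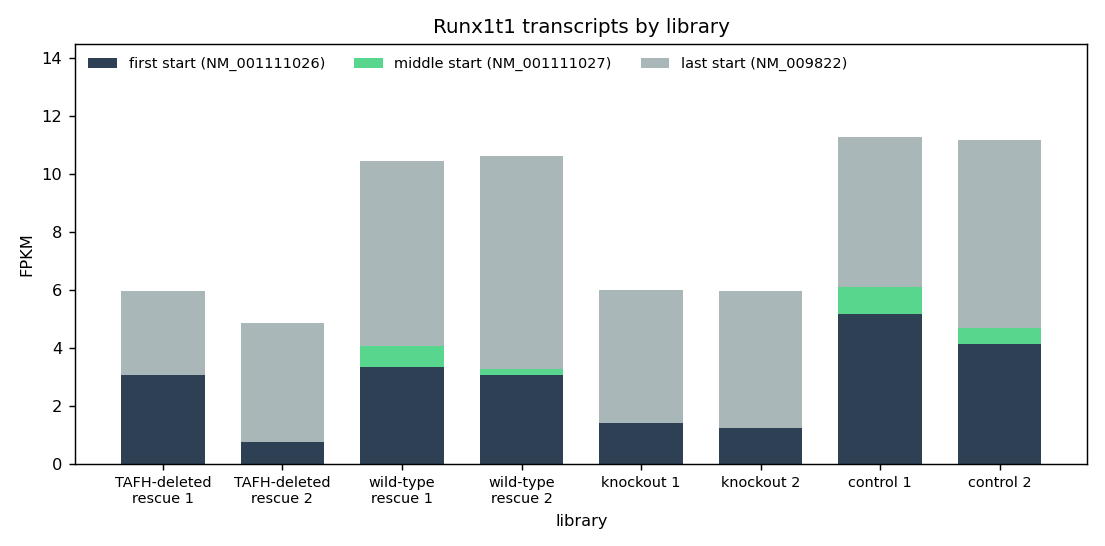
FPKM of the 3 Runx1t1 transcripts, stacked, in each of the 8 libraries. The bars of the 4 TAFH-deleted and knockout libraries end between 4.86 and 5.99 FPKM and those of the 4 wild-type rescue and control libraries between 10.4 and 11.3 FPKM, and the middle start is seen only in wild-type rescue and control.

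Genes with a pattern close to Runx1t1 and Id4 were looked up by Pearson's r of log2(FPKM + 1) over the 6 samples, as a description over few points that share knockout and clone origin. The closest 3 were taken from 9800 genes for Runx1t1 and 9801 for Id4, so a high r is in part a result of the search. Closest to Runx1t1 were Spata13 (r = 0.995), the collagen receptor Mrc2 (0.993) and the transcription factor Gata6 (0.992). Gata6 was at 0.234 and 0.0412 FPKM with TAFH-deleted TAF4, 9.95 and 9.83 FPKM with full-length TAF4, 0.666 FPKM in knockout and 11.6 FPKM in control. Closest to Id4 were Rg9mtd1 (0.994), the Notch target and bHLH repressor Hes1 (0.991) and the ephrin ligand Efnb2 (0.989). Rg9mtd1 ranged only from 22.4 to 28.0 FPKM, and the highest value of Id4 was that of 1 clone. Hes1 was at 3.37 and 17.2 FPKM with TAFH-deleted TAF4, 9.63 and 6.07 FPKM with full-length TAF4, 4.41 FPKM in knockout and 7.80 FPKM in control, so that its extremes, like those of Id4, were the TAFH-deleted clones.

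The partners of these proteins were followed in lists of known function. Of 30 tissue-restricted bHLH factors that pair with E proteins, 4 passed the filter on low values (Scx, Twist1, Twist2 and Atoh8), and limma called 0 in any comparison. Scx, the tendon factor scleraxis, was at 40.0 and 42.4 FPKM with TAFH-deleted TAF4, 30.0 and 27.7 FPKM with full-length TAF4, 47.7 FPKM in knockout and 28.2 FPKM in control. Its values thus lay like those of Id1, with a log2 difference of 0.50 ± 0.09 between the rescue forms (adjusted p = 0.0713 by limma). Atoh8 was at 24.8 and 24.6 FPKM with TAFH-deleted TAF4, 35.8 and 37.1 FPKM with full-length TAF4, 32.1 FPKM in knockout and 31.6 FPKM in control, a log2 difference between the forms of -0.54 ± 0.09 (adjusted p = 0.0615 by limma). Twist1, the highest of these partners in control, differed by -0.01 ± 0.10 between the forms. Of 6 coactivators of E proteins, which include Ep300, Crebbp and the mouse Taf4 gene (listed as Taf4a), all were tested and limma called 0. Taf4a was at 14.7 and 19.2 FPKM with TAFH-deleted TAF4, 14.455 and 15.0 FPKM with full-length TAF4, 12.5 FPKM in knockout and 11.3 FPKM in control. The targeted gene was thus not at a lower level in knockout than in control (0.13 ± 0.25, adjusted p = 0.880 by limma). Its level does not check the knockout labels, since the deleted exons are not named in the labels and its transcript may still be counted outside them. The rescue cells carry human TAF4, and whether reads of that transgene were counted as Taf4a was not tested.

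Of 22 genes for partners of ETO proteins, such as the histone deacetylases and the Ncor corepressors, 18 were tested. Limma called 1, Bcl6, lower in TAFH-deleted than in wild-type rescue, beside 1.69% of all genes called lower, and 0 in the other 3 comparisons. Bcl6 encodes a repressor that binds ETO proteins in human B cells. It was at 9.19 and 9.98 FPKM with TAFH-deleted TAF4, 22.2 and 21.02 FPKM with full-length TAF4, 16.7 FPKM in knockout and 16.7 FPKM in control, and its log2 difference between the forms was -1.09 ± 0.13 (adjusted p = 0.0488 by limma). Only the TAFH-deleted clones thus lay below knockout and control. Runx1, which encodes the fusion partner of human RUNX1T1, was at 6.40 and 5.24 FPKM with TAFH-deleted TAF4, 14.1 and 12.9 FPKM with full-length TAF4, 11.7 FPKM in knockout and 6.90 FPKM in control, with an adjusted p of 0.0653 by limma between the forms. The median of the 18 was 0.15 in that comparison, beside 0.06 over all genes. Of 13 other partners and stabilisers of Id proteins, 10 were tested and limma called 0; Ets1 (0.77 ± 0.15, adjusted p = 0.0754 by limma) and Usp1, a deubiquitinase known from human cells to stabilise Id proteins (0.84 ± 0.25, adjusted p = 0.125 by limma), had higher values in TAFH-deleted than in wild-type rescue.

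BMP signalling induces Id genes through Smad proteins, and 22 of 27 listed genes of that pathway were tested. In TAFH-deleted against wild-type rescue, limma called 4 lower and 0 higher, beside 1.69% lower and 0.931% higher over all genes. Of the 22, 19 had lower values, while 6740 of all 12025 genes tested had higher values. The median log2 difference of the 22 was -0.42, beside 0.06 over all genes. The receptor gene Bmpr1b fell to 3.84 and 3.64 FPKM with TAFH-deleted TAF4, against 17.8 and 16.2 FPKM with full-length TAF4 (-1.93 ± 0.16, adjusted p = 0.0389 by limma), with 8.62 FPKM in knockout and 10.53 FPKM in control. The ligand gene Bmp4 fell to 25.6 and 32.3 FPKM, against 60.0 and 66.6 FPKM in wild-type rescue (-1.11 ± 0.14, adjusted p = 0.0497 by limma), with 42.0 FPKM in knockout and 61.6 FPKM in control. Both were lower in the TAFH-deleted clones than in knockout. The ligand gene Gdf6 was listed at 0 and 0.0185 FPKM with TAFH-deleted TAF4, against 2.97 and 2.52 FPKM with full-length TAF4 (-1.89 ± 0.16, adjusted p = 0.0389 by limma), with 0.0812 FPKM in knockout and 5.57 FPKM in control. The pseudoreceptor gene Bambi, itself induced by BMP, was at 0.0870 and 0.0892 FPKM, against 2.11 and 1.59 FPKM in wild-type rescue (-1.38 ± 0.17, adjusted p = 0.0496 by limma), with 0.265 FPKM in knockout and 1.96 FPKM in control. The sizes of the differences of these low genes depend on the 1 FPKM added before taking logs. Gdf6 and Bambi also passed the filter only through wild-type rescue and control, the groups where they were high. Their direction is therefore not independent of the filter. These 4 include ligands, a receptor and an antagonist. Over the same clones Id1, downstream of the pathway, had the higher values in the TAFH-deleted form.

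In the other comparisons limma called 0 BMP genes. In knockout against control 16 of 22 had lower values, 6 of them at least 2-fold, as were 5.76% of all genes, with a median of -0.27 beside -0.03 over all genes; the antagonist gene Grem1 was at 7.60 against 82.4 FPKM (-3.28 ± 0.61, adjusted p = 0.284 by limma). In wild-type rescue against knockout 19 had higher values, with a median of 0.29 beside -0.04. In TAFH-deleted rescue against knockout 13 had lower values, with a median of -0.07 beside 0.03. Among the 6 samples, Gdf6, Bambi and Chrdl1 reached 1 FPKM only in control and wild-type rescue, and Bmp5 only in control. They passed the filter through groups where they were high. The counts and medians of knockout against control and of wild-type rescue against knockout were thus partly set by the filter. So were those of TAFH-deleted against wild-type rescue given above, where Gdf6, Bambi and Chrdl1 are among the genes with lower values. Without either wild-type rescue clone, limma called 0 of the BMP genes and 0 of the ETO partners in TAFH-deleted against wild-type rescue, as it did of all genes. The same was found without the filter on low values and with clone number as a block on 6 samples, so these 5 calls rest on those choices.

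Of 27 genes known as E-protein targets from other cells, 12 were tested and limma called 0 in any comparison. Their median log2 difference was -0.06 in knockout against control, 0.31 in wild-type rescue against knockout, -0.18 in TAFH-deleted rescue against knockout and -0.43 in TAFH-deleted against wild-type rescue, beside -0.03, -0.04, 0.03 and 0.06 over all genes. Between the forms, 10 of the 12 had lower values in the TAFH-deleted clones, while 6740 of all 12025 genes tested had higher values. Among the 10, Cdkn1c and Mef2c were below 1 FPKM in every rescue clone. Socs3, a feedback inhibitor of cytokine signalling, was at 25.5 and 20.0 FPKM with TAFH-deleted TAF4, 41.6 and 45.2 FPKM with full-length TAF4, 45.8 FPKM in knockout and 31.6 FPKM in control (-0.91 ± 0.15 between the forms, adjusted p = 0.0632 by limma). Cdkn1c, a cyclin-dependent kinase inhibitor, was at 0 and 0.0362 FPKM with TAFH-deleted TAF4, 0.708 and 0.974 FPKM with full-length TAF4, 0.159 FPKM in knockout and 4.96 FPKM in control. Cdkn1c passed the filter through control alone, as did Mef2c, at 3.67 FPKM in control and at most 0.418 FPKM in the other samples. Both were lower in knockout than in control, by -2.36 and -2.19, so the median of that comparison was partly set by the filter. Cdkn1a, the p21 gene induced by E proteins in other cells, was at 0.164 and 2.06 FPKM with TAFH-deleted TAF4, 11.3 and 4.96 FPKM with full-length TAF4, 2.65 FPKM in knockout and 7.53 FPKM in control. Its clones did not overlap between the forms, but they differed several-fold within each form, and its adjusted p was 0.123 by limma.

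**Figure D5:**
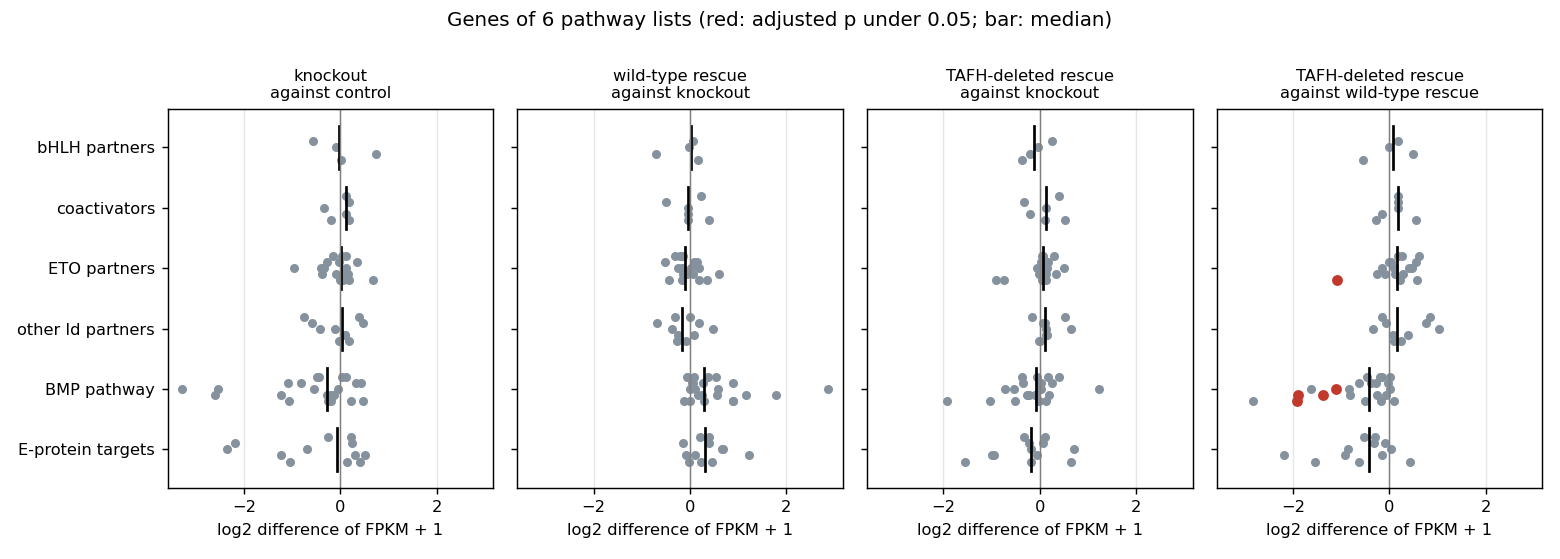
Log2 differences of FPKM + 1 of the tested genes of 6 lists in the 4 comparisons, 1 point per gene, with a bar at the median of each list. The 5 red points, Bmpr1b, Gdf6, Bambi, Bmp4 and Bcl6, passed an adjusted p of 0.05 in TAFH-deleted against wild-type rescue, and the other comparisons hold none.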

How the data were processed

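RNA of mouse embryonic fibroblasts was sequenced as 8 libraries in 4 groups of 2. Per the submitters' processing notes, CASAVA 1.8, TopHat, Cufflinks and Cuffdiff were used with the mm9 build; other versions, options and the handling of strand are not given in the sources used here. The authors deposited FPKM per RefSeq transcript and library, and p-values and q-values for 3 comparisons, quoted only as theirs.

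FPKM were summed per gene symbol. In single-transcript genes of at least 1000 bases, 100% of low FPKM values were whole multiples of 1 fragment within 0.05 fragments, after 204.1 bases were taken from the length. This gave implied totals and fragments. The share of read starts was computed as fragments per base and strand of the longest transcript, not from read positions. At a length of 2 kilobases a single fragment equals 0.0322 to 0.0390 FPKM. Chi-squares compare fragments of the 2 libraries of a group.

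The test was limma 3.58.1 (R 4.3.3, eBayes with trend) on log2(FPKM + 1), two-sided, with Benjamini-Hochberg adjustment over 12025 genes at 0.05. Genes needed at least 1 FPKM in at least 2 libraries and a transcript of at least 300 bases, which 9 of 10 members met. All groups were fitted together, without covariates, on 6 samples with 2 residual and 2.15 prior degrees of freedom; only the rescue clones inform the spread. The code was tested on simulated data. All 10 members are named; of each list, called genes or up to 4 with the smallest p and a mean of at least 1 FPKM. The members and lists were chosen with earlier results of these data known, and the comparison of the arrangement of samples was chosen after the values were seen. Alternatives covered the pseudocount, filters, counting libraries singly, the replicate block, quantile normalization, the highest transcript, leaving out each library, and a correction for 1 read per position.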

Additional observations from a re-analysis of the deposited data

How the results depend on the processing

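The number of members called by limma was 0 in all 4 comparisons as reported, and also with a pseudocount of 0.1, without the filter on low values, with short transcripts kept, after quantile normalization, with the highest transcript of each gene, with the position correction and with clone number as a block on 6 samples. With the 8 libraries counted singly it was 5 in knockout against control, 3 in wild-type rescue against knockout and 4 in TAFH-deleted against wild-type rescue, beside 23.8%, 24.9% and 37.97% of all genes. With only the 2 groups compared it was 8, 6 and 0, beside 79.5%, 56.8% and 1.91% of all genes. With the 8 libraries counted singly and the replicate block it was 3, 3 and 4, beside 16.8%, 18.6% and 32.6% of all genes; the clone and replicate numbers are not shown to pair the samples, since deviations from group means correlated between -0.0776 and 0.0571. Leaving out 1 library gave ranges of 0 to 3 in knockout against control, 0 to 4 in wild-type rescue against knockout, 0 to 2 in TAFH-deleted rescue against knockout and 0 to 6 in TAFH-deleted against wild-type rescue, above 0 only without a TAFH-deleted clone. Counting single libraries treats pairs that differ by less than sampling noise as replicates.

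Over all genes, calls in TAFH-deleted against wild-type rescue were 315 as reported, 142 with a pseudocount of 0.1, 175 after quantile normalization, 106 with short transcripts kept, 0 without the filter, 0 with the block on 6 samples, 210 with the highest transcript, 230 with only the 2 groups compared, 4566 with libraries counted singly and 0 to 6722 when 1 library was left out. In knockout against control they were 0 as reported, 213 without the filter, 15 with short transcripts kept, 2857 with libraries counted singly, 9562 with only the 2 groups compared, and 2712 and 2661 without TAFH-deleted clone 1 and clone 2. In wild-type rescue against knockout they were 0 as reported, 21 with short transcripts kept, 2998 with libraries counted singly, 6829 with only the 2 groups compared and 0 to 3211 when 1 library was left out. In TAFH-deleted rescue against knockout they were 0 as reported, 13 with short transcripts kept, 1074 with libraries counted singly and 0 to 4013 when 1 library was left out.

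Of the members' log2 differences, 569 kept their direction and call, 62 kept their direction and became called, and 17 changed sign. A difference that changed sign is counted only there, also where it became called. In wild-type rescue against knockout, Tcf3 was at -0.16 with the highest transcript. In TAFH-deleted rescue against knockout, Id1 was at 0.016 after quantile normalization and Tcf12 at -0.029 with the highest transcript. In TAFH-deleted against wild-type rescue, Id4 was at -0.11 with a pseudocount of 0.1, Tcf3 and Tcf4 at -0.11 and -0.061 after quantile normalization, and Tcf3 at -0.015 with the position correction. With 1 library left out, TAFH-deleted rescue against knockout ranged from -0.032 to 0.20 for Tcf12, from -0.13 to 0.020 for Id1, from -0.35 to 0.21 for Id2 and from -0.46 to 1.97 for Id4. TAFH-deleted against wild-type rescue ranged from -0.034 to 0.065 for Tcf3, from -0.022 to 0.080 for Tcf4, from -0.052 to 0.52 for Id2 and from -1.04 to 1.39 for Id4. The cause of these changes was not tested. Depth limits Cbfa2t3 most, with at most 3.03 estimated fragments in a library, since 3 fragments of a 2 kilobase transcript correspond to about 0.1 FPKM. Id4 had from 8 to 153 estimated fragments per library, and both of these extremes were TAFH-deleted clones.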
